A study of Homo sapiens with 6 samples.

Results

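The Hippo pathway was examined through 10 of its genes: the kinases LATS1 and LATS2, the coactivators YAP1 and WWTR1 (the gene of TAZ), their DNA-binding partners TEAD1, TEAD2, TEAD3 and TEAD4, and the target genes CCN1 (also known as CYR61) and CCN2 (also known as CTGF). Genes were taken by symbol, and all 10 were found among the 59653 genes of the table. RNA came from the human ovarian cancer line SK-OV3 and was sequenced 48 h after transfection with 50 nM of pooled siRNA, in 3 libraries with a non-targeting pool (siControl) and 3 with a pool of siRNAs against the lncRNA PVT1 (siPVT1). Both groups were labelled wildtype in genotype and were kept in full serum. The model is 1 cell line and 1 siRNA pool, and off-target effects of that pool and effects through PVT1 cannot be told apart. The labels do not say whether replicates came from separate cultures, so p-values measure only the spread between these libraries.

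In the Hippo pathway, the kinases MST1 and MST2 activate LATS1 and LATS2, which phosphorylate YAP1 and TAZ and hold them in the cytoplasm or mark them for degradation. When the kinases are inactive, as in sparse cells or on a stiff matrix, YAP1 and TAZ enter the nucleus and activate genes through the TEAD factors. CCN1 and CCN2, which encode secreted matrix proteins, are the targets most often used to read this activity, and LATS2 is itself a target that feeds back on the pathway. Much of the regulation is by phosphorylation and localization of proteins, which RNA counts do not show. The question addressed by the comparison is what happened to the RNA of the pathway when PVT1 was lowered.

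Library totals lay between 28383171 and 35059576 counts. Across genes, siPVT1 libraries differed more from each other than siControl libraries did. The chi-square per degree of freedom was 8.62 to 45.3 between pairs of siPVT1 libraries and 1.75 to 5.67 between pairs of siControl libraries. Normalized counts (counts scaled with edgeR's TMM factors to the mean library) of PVT1, the targeted lncRNA, were 3298, 4090.5 and 3377 in siControl and 2349.7, 2111 and 2062 in siPVT1. Its log2 fold change (siPVT1 over siControl) was −0.72, with a standard error (SE) of 0.097 and an adjusted p of 0.00034 by edgeR. PVT1 was thus at 0.606 of the siControl level, short of a 2-fold change. By two-sided exact permutation test, p was 0.1, the smallest value that 3 libraries against 3 allow. KRT7, KRT8, KRT18 and VIM were each higher per kilobase than at least 94.7% of the 15955 genes ranked, while ERBB2, known to be amplified in SK-OV3, PAX8 and KRT19 were higher than 71.2%, 70.4% and 51.8% of them. By the adjusted p of edgeR, 5 of these 7 markers were higher in siPVT1 and 2 lower, against 29.5% and 28.4% of all genes tested. KRT19 went from 256 ± 18.5 to 1261 ± 448.5 normalized counts and PAX8 from 2627 ± 23.6 to 5254 ± 609 (SD, n = 3 each). KRT7 fell from 7112 ± 497 to 5010 ± 184 and ERBB2 from 1249 ± 68.9 to 929 ± 32.9. These markers do not settle the identity of the line. CDKN2A and CDKN2B averaged 19.0 and 15.0 normalized counts in siControl. All 4 endothelial markers examined were called higher in siPVT1 by edgeR and 3 by DESeq2 (summed normalized counts from 2066 to 2110 in siControl and from 8665 to 10932 in siPVT1, most of it CDH5). Of 6 fibroblast markers, 3 were tested and 2 were called higher (summed counts from 212 to 220.2 and from 799 to 838), with COL3A1 and DCN at a mean of 0.92 counts or less. Of 5 leukocyte markers, 2 were tested and CD14 was called lower by edgeR at a mean of 7.66 and 2.78 counts, while DESeq2 called 0, CD3E was at 0, and the summed counts ranged from 556 to 616 in siControl and from 584 to 894 in siPVT1. Over all genes tested, edgeR called 11.8% higher and 9.64% lower (adjusted p under 0.05 with a change of 2-fold or more). The part of these marker genes in the results for Hippo genes was not tested.

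All 10 genes had enough counts to be tested. None of them changed by 2-fold. With edgeR, 0 of 10 passed both thresholds of the study (adjusted p under 0.05 with a change of 2-fold or more in either direction), against 21.5% of the 19008 genes tested, and DESeq2 also gave 0. That share comes from the fit made here. The study reported far fewer differentially expressed genes at these thresholds, and the difference was not examined. By the adjusted p alone, 8 of 10 changed, 4 higher and 4 lower in siPVT1, against 57.9% of all genes tested, and the same number had an unadjusted p under 0.05. WWTR1, TEAD1, TEAD3 and CCN2 rose, and YAP1, TEAD4, LATS1 and LATS2 fell. CCN1 and TEAD2 did not pass. Below, the call of a single one of these 10 genes means an adjusted p under 0.05 alone. The 12 other fits of a gene leave out the test against a 2-fold change, in which 0 of the 10 passed. The libraries of the groups did not overlap for 9 of the 10 genes, TEAD2 being the exception, and for 65.6% of all genes tested. Of the 9, 5 were higher and 4 lower, against 33.2% and 32.3% of all genes. Scaling by the total count alone moved the median over all genes tested, on the log2 scale, from 0.0014 to −0.148. With that scaling 6 of the 10 genes passed the adjusted p, 2 of them higher (TEAD3 and CCN2) and 4 lower. Since RNA was measured in bulk, fewer cells of a type and less RNA per cell cannot be told apart.

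**Figure D1:**
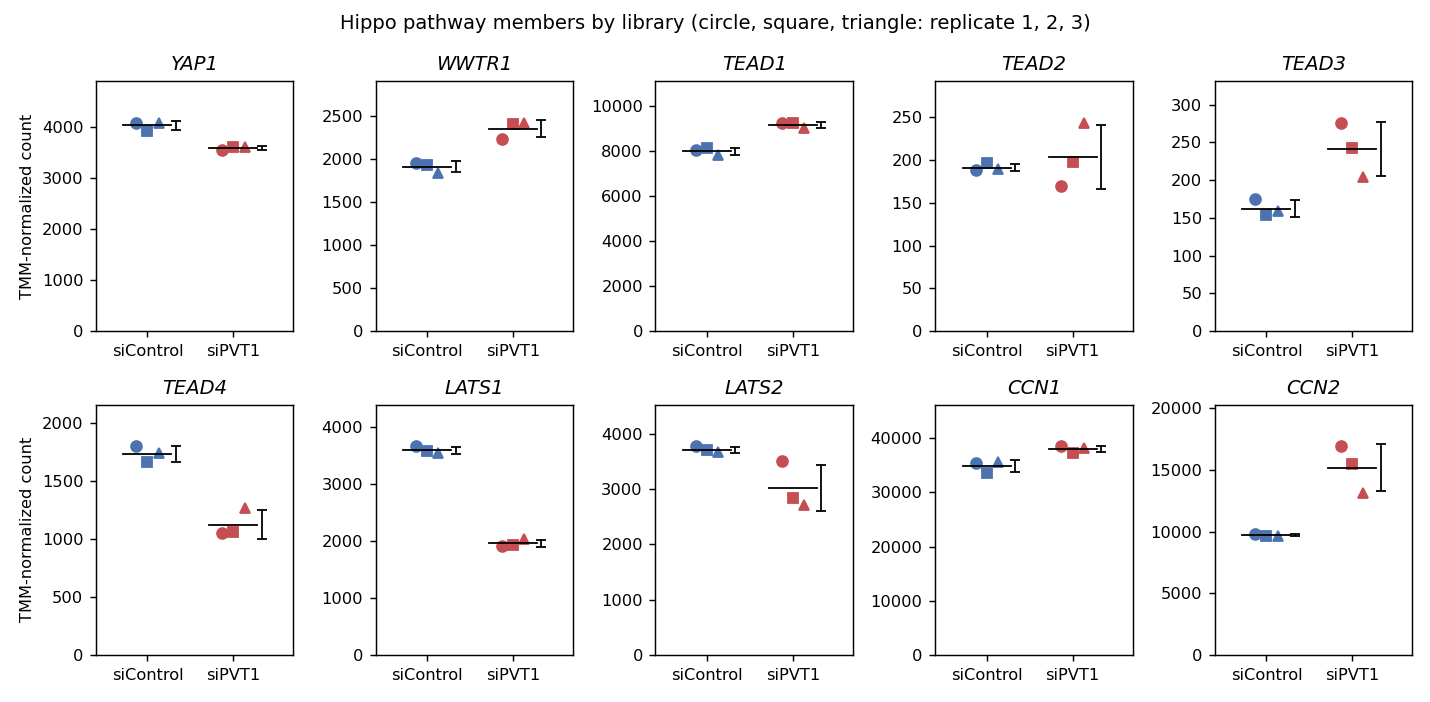
TMM-normalized counts (vertical axes, from 0) of the 10 Hippo pathway genes in the 3 siControl and the 3 siPVT1 libraries, with each library as a point, the mean as a line and the SD as a bar. LATS1 showed the widest gap relative to the spread, and TEAD2 overlapped between the groups. YAP1, TEAD1 and CCN1 were less scattered in siPVT1 than in siControl. The other genes were more scattered in siPVT1, LATS1 only slightly.

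LATS1 lies on chromosome 6 of GRCh38 (149658153 to 149718105, minus strand, ENSG00000131023) and encodes a kinase that phosphorylates YAP1 and TAZ. Its normalized counts were 3664, 3590.4 and 3543 in siControl and 1915, 1932 and 2035 in siPVT1. Every siPVT1 library was far below every siControl library, and the spread within either group was small beside that gap. LATS1 fell by 0.88 on the log2 scale (SE 0.057, 95% confidence interval −1.01 to −0.75, adjusted p = 8.4e-06 by the quasi-likelihood test of edgeR), to 0.545 of the siControl level. It was the largest change among the 10 genes. An absolute log2 fold change of this size or more was reached by 28.5% of all genes tested. Over the 12 other fits of this gene the value ranged from −1.03 to −0.87 with an adjusted p of at most 0.00018, and LATS1 passed the 2-fold threshold only with scaling by the total count.

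LATS2 lies on chromosome 13 (20973036 to 21061586, minus strand, ENSG00000150457) and encodes the paralogous kinase. Its normalized counts were 3769, 3709.6 and 3661 in siControl and 3498, 2832 and 2718 in siPVT1. The siPVT1 libraries were all lower but differed among themselves, with replicate 1 much nearer to siControl than replicates 2 and 3. LATS2 fell by 0.30 on the log2 scale (SE 0.095, adjusted p = 0.0257 from edgeR). This call was lost when siControl replicate 1, 2 or 3 or siPVT1 replicate 2 was left out, at adjusted p-values of 0.0748, 0.069, 0.0596 and 0.0807 (log2 fold changes of −0.30, −0.30, −0.32 and −0.27). Leaving out siPVT1 replicate 1 moved the log2 fold change to −0.43.

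YAP1 lies on chromosome 11 (102110447 to 102233424, plus strand, ENSG00000137693) and encodes the coactivator that LATS1 and LATS2 phosphorylate. Normalized counts were 4074, 3919 and 4072 in siControl and 3540.2, 3597 and 3599 in siPVT1. The groups did not overlap, and the siPVT1 level was 0.89 of that in siControl. YAP1 fell by 0.17 on the log2 scale (SE 0.053, 95% confidence interval −0.29 to −0.047, adjusted p = 0.0243 from edgeR). The call was lost without siControl replicate 1 (−0.16, adjusted p = 0.081) or 3 (−0.16, adjusted p = 0.0837), and without a filter on low counts (adjusted p = 0.079).

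WWTR1 lies on chromosome 3 (149517235 to 149736714, minus strand, ENSG00000018408) and encodes TAZ, the paralog of YAP1. Its normalized counts were 1956, 1931 and 1835 in siControl and 2231, 2404 and 2418 in siPVT1. It rose where YAP1 fell, with a log2 fold change of 0.30 (SE 0.062, adjusted p = 0.0035 from edgeR). Scaling by the total count lowered the value to 0.15 (adjusted p = 0.0695), and that scaling shifted the median of all genes by a similar distance. An annotated antisense gene, WWTR1-AS1, overlaps its exons and held 0.518% of its counts.

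The TEAD factors carry the DNA-binding domain of the complex, and YAP1 and TAZ cannot bind these sites without them. TEAD1 (chromosome 11, 12674421 to 12944737, plus strand, ENSG00000187079) was by count the most abundant of the 4, with 8045, 8135 and 7827 normalized counts in siControl and 9242, 9268 and 9029.8 in siPVT1. The siPVT1 libraries were all higher and tightly grouped. TEAD1 rose by 0.20 on the log2 scale (SE 0.051, adjusted p = 0.0107 from edgeR), and the call was lost with scaling by the total count (0.048, adjusted p = 0.457), without siControl replicate 3 (0.18, adjusted p = 0.0641) and without siPVT1 replicate 2 (0.18, adjusted p = 0.0592).

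TEAD4 (chromosome 12, 2959330 to 3040676, plus strand, ENSG00000197905) moved the other way. Its normalized counts were 1794, 1661 and 1738 in siControl and 1047, 1054 and 1265 in siPVT1. All siPVT1 libraries were lower, and replicate 3 lay nearest to siControl. TEAD4 fell by 0.62 on the log2 scale (SE 0.087, 95% confidence interval −0.83 to −0.42, adjusted p = 0.00044 from edgeR), and it kept its call in all 12 other fits, from −0.77 to −0.59.

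TEAD2 and TEAD3 had far fewer counts than TEAD1 and TEAD4. TEAD3 (chromosome 6, 35473597 to 35497079, minus strand, ENSG00000007866) was at 175, 154 and 159 normalized counts in siControl and 276, 243 and 205 in siPVT1. It was higher in each siPVT1 library, least so in replicate 3, with a log2 fold change of 0.57 (SE 0.132, adjusted p = 0.0063 from edgeR) and a call in all 12 other fits. TEAD2 (chromosome 19, 49340595 to 49362457, minus strand, ENSG00000074219) was at 188, 196 and 189 in siControl and 169, 198 and 243 in siPVT1. The siPVT1 libraries lay on both sides of siControl. Its log2 fold change of 0.095 (95% confidence interval −0.23 to 0.42, adjusted p = 0.59 from edgeR) turned negative with scaling by the total count (−0.055) and without siPVT1 replicate 3 (−0.073).

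**Figure D2:**
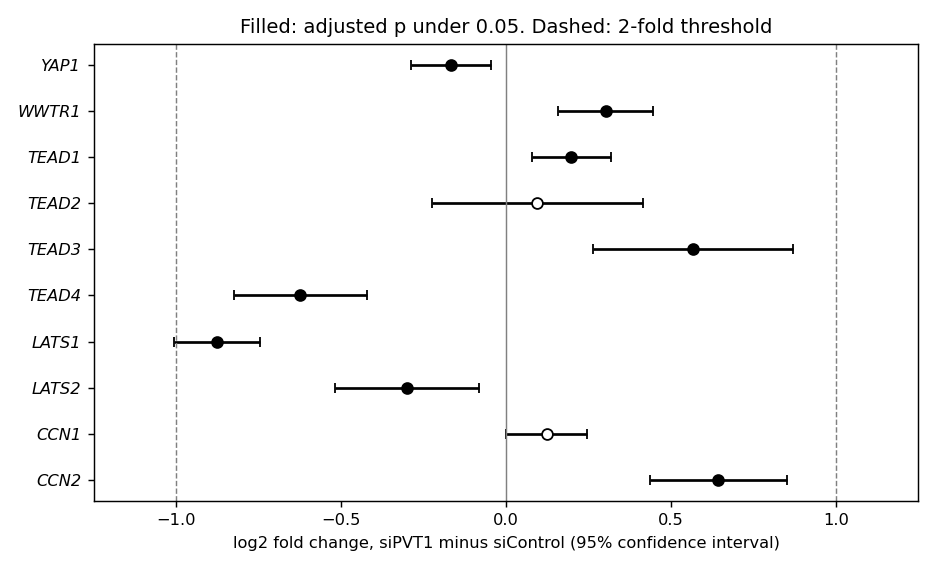
Log2 fold change of the 10 genes (horizontal axis, siPVT1 minus siControl) with its 95% confidence interval from edgeR, filled where the adjusted p was under 0.05, with dashed lines at a 2-fold change. No estimate reached a dashed line. CCN1 and TEAD2, the open points, fell below 0 with scaling by the total count.

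CCN2 lies on chromosome 6 (131948176 to 131951372, minus strand, ENSG00000118523) and encodes connective tissue growth factor, a matrix protein that is a standard readout of YAP1 and TAZ. Normalized counts were 9839, 9665 and 9653 in siControl and 16915, 15500.0 and 13139 in siPVT1. The siControl libraries were nearly equal, and every siPVT1 library was well above them, with replicate 3 the lowest. CCN2 rose by 0.64 on the log2 scale (SE 0.0901, 95% confidence interval 0.44 to 0.85, adjusted p = 0.00044 from edgeR), or 1.56 times the siControl level, and the call held in all 12 other fits, from 0.49 to 0.72.

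CCN1 lies on chromosome 1 (85580761 to 85584589, plus strand, ENSG00000142871) and encodes the related matrix protein CYR61. Normalized counts were 35423, 33609 and 35583 in siControl and 38486, 37319.7 and 38123 in siPVT1. Each siPVT1 library was above each siControl library, by 1.09 times on average. Its estimate was 0.12 on the log2 scale (SE 0.054, 95% confidence interval −0.00029 to 0.25), the adjusted p was 0.0806 from edgeR, and the value was −0.026 with scaling by the total count. The adjusted p was above 0.05 in all 12 other fits, from 0.0539 to 0.63. The upper end of the interval in the TMM fit lay below the lower end of that of CCN2.

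The window around the start of each gene was searched for GGAATG, the core letters of the TEAD recognition sequence, on both strands. RefSeq promoters (GRCh38.p14, 250 bases before to 50 after the start) were matched by symbol for 7 of the 10 genes, with 10 windows in all. CCN1, TEAD1 and TEAD4 were not matched. GGAATG was found in 14.0% of all 35116 promoters of this length, and 0.128% held it at least 3 times. The CCN2 window held it 3 times, beginning 169, 104 and 95 bases before the start. The windows of YAP1 and LATS2 held it once, and those of WWTR1, TEAD2, TEAD3 and LATS1 did not hold it. The sites are shown because CCN2 is the target that moved most among these genes, with the motif in capitals and each sequence 5′ to 3′ on the strand of the gene.
CCN2, chr6:131951524-131951553, minus strand: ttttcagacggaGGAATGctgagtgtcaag
CCN2, chr6:131951454-131951483, minus strand: gtggggaGGAATGcgaGGAATGtccctgtt
YAP1, chr11:102110273-102110302, plus strand: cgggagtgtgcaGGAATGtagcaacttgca
LATS2, chr13:21061560-21061589, minus strand: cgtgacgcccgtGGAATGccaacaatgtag
A pair of these sites in CCN2 is separated by 3 bases on the same strand. TGANTCA, a motif of AP-1 factors that often act beside TEADs, was found in 1 of the 10 windows (LATS1) and in 7.71% of all promoters. It does not overlap GGAATG. These are matches of letters, and no binding was measured.

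In the 4 pairs examined, paralogs moved differently from each other. The log2 ratio of their counts within a library does not depend on how libraries are scaled. For WWTR1 to YAP1 it was −1.06, −1.02 and −1.15 in siControl and −0.67, −0.58 and −0.57 in siPVT1, a difference of 0.47. For LATS2 to LATS1 it was 0.041, 0.047 and 0.047 in siControl and 0.87, 0.55 and 0.42 in siPVT1, a difference of 0.57. The LATS genes had nearly equal counts in each siControl library, and siPVT1 replicate 1 departed most from this. For CCN2 to CCN1 it went from −1.85, −1.80 and −1.88 to −1.19, −1.27 and −1.54, a difference of 0.51. For TEAD4 to TEAD1 it went from −2.16, −2.29 and −2.17 to −3.14, −3.14 and −2.84, a difference of −0.83. The groups did not overlap for any of these 4 ratios, with p = 0.1 for each by two-sided exact permutation test, the smallest value the design allows. For WWTR1 to YAP1 and TEAD4 to TEAD1 this had to follow, since the single genes separated in opposite directions. With 1 library left out, p by the same test was 0.2 for CCN2 to CCN1 without siControl replicate 1 or 3 (differences of 0.51 and 0.49). It stayed at 0.1 otherwise. Among single genes, the groups did not overlap for 65.6% of those tested. Ratios of other gene pairs, other TEAD pairs included, were not examined, so the lack of overlap cannot be called particular to these paralogs. Where paralogs are alike in sequence, the estimated counts rest on how ambiguous reads were assigned.

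**Figure D3:**
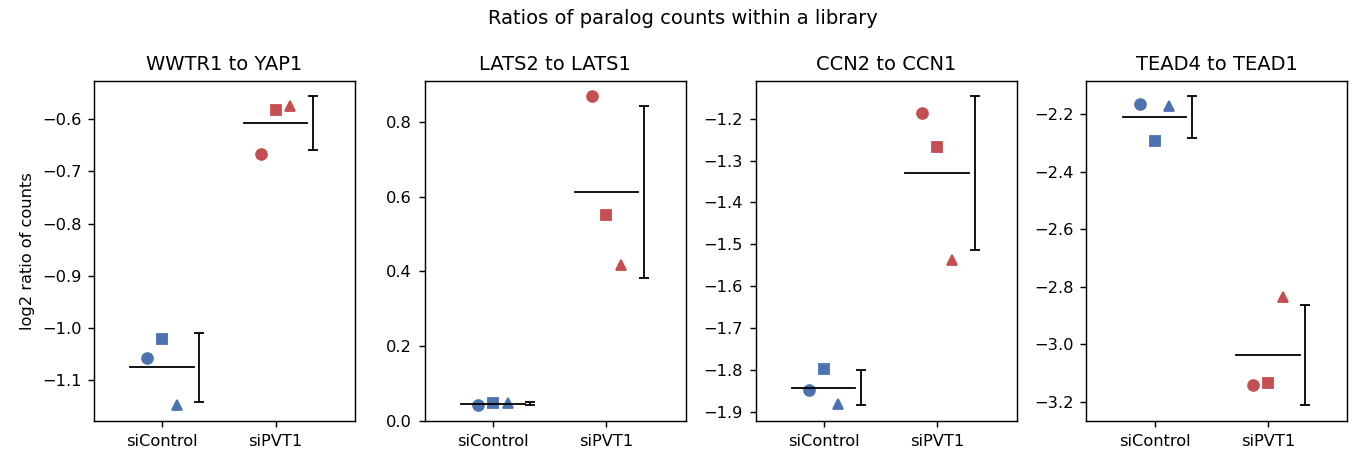
Log2 ratio of counts within each library (vertical axes) for 4 pairs of paralogs, with libraries as points, means as lines and SD as bars. The ratio was higher in siPVT1 for WWTR1 to YAP1, LATS2 to LATS1 and CCN2 to CCN1, and lower for TEAD4 to TEAD1, without overlap of the groups.

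Levels of different genes were compared as normalized counts per kilobase of the median annotated transcript. In siControl CCN1 was highest at 16468 ± 518 (SD, n = 3), followed by CCN2 at 4157 ± 44.5, and TEAD2 and TEAD3 were lowest at 106 ± 2.45 and 59.6 ± 4.14. These 4 places were also the same with the longest or the canonical transcript. Between them lay WWTR1, TEAD1, YAP1 and TEAD4, from 2932 ± 97.7 to 2401 ± 92.8, and then LATS2 at 1229 ± 18 and LATS1 at 1096 ± 18.6. YAP1 and TEAD4 overlapped between libraries, and the other neighbours in this order did not. The place of WWTR1 depends on the length, since its median transcript has 650.5 bases and its longest 5037. With the canonical transcripts WWTR1 was the eighth of the 10. TEAD1 made 50.4% ± 1.19 of the 4 TEADs per kilobase in siControl and 63% ± 2.66 in siPVT1 (SD, n = 3 each), and TEAD4 made 46.4% ± 1.21 and 32.7% ± 2.63. With canonical lengths the share of TEAD1 went from 42.4% ± 1.12 to 54.1% ± 2.62, and that of TEAD4 from 50.5% ± 1.18 to 36.3% ± 2.67. By canonical length TEAD4 thus lay above TEAD1 in siControl and below it in siPVT1, and by median length it lay below in both groups. The LATS genes together went from 2325 ± 36.5 to 1596 ± 126 normalized counts per kilobase of the median transcript, while YAP1 and WWTR1 together were at 5387 ± 96.2 and 5798 ± 181 by median length and at 1123 ± 17.4 and 1129 ± 26.9 by canonical length.

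The rest of the pathway was read from lists of other genes, in which the 10 genes are also counted where they belong. Counts over all genes tested were 29.5% higher and 28.4% lower by the adjusted p alone, and 11.8% and 9.64% past both thresholds. Of 24 kinases and scaffolds upstream of YAP1, 12 rose and 7 fell (median log2 fold change 0.13, against 0.0014 over all genes). With scaling by the total count the median was −0.018, 11 rose and 8 fell, and 1 was past both thresholds upwards and 2 downwards (LATS1 and STK38L). The core genes of MST1 and MST2, STK4 and STK3, rose by 0.33 and 0.24, and their scaffold SAV1 by 0.34, while the NDR kinase STK38L fell as LATS1 did (−0.92, SE 0.0705). MAP4K4, which acts beside MST1 and MST2 on LATS, was the most abundant of the list and went from 21014 ± 528 to 38454 ± 1038 normalized counts (SD, n = 3 each). MAP4K2 (1.68, SE 0.0759) and TNIK (1.01, SE 0.104) passed both thresholds. TNIK was no longer past both thresholds without siControl replicate 2 (0.98), siPVT1 replicate 1 (0.90) or siPVT1 replicate 2 (0.99). The same held with scaling by the total count (0.86), with DESeq2 size factors and in the test against a 2-fold change.

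STRIPAK, a phosphatase complex that counteracts MST1 and MST2, was represented by 15 genes. By adjusted p, 2 rose and 6 fell, with 0 past both thresholds in edgeR and in DESeq2 and 9 at an unadjusted p under 0.05. The adjusted p was under 0.05 for 57.9% of all genes tested. The median was −0.12, and with scaling by the total count 2 rose and 11 fell. PPP2CA, the catalytic subunit, and MOB4 were lowest at −0.68 and −0.62, and STK25 was highest at 0.54. Of 25 tested genes of cell junctions, polarity and LIM proteins, which pass signals from contact and tension to the kinases, 11 rose and 8 fell. The median of 0.11 was 0.011 without siControl replicate 2, 0.021 without siControl replicate 1, 0.058 without siPVT1 replicate 1, 0.27 without siPVT1 replicate 3, −0.084 without siPVT1 replicate 2 and −0.038 with scaling by the total count. The cadherin genes DCHS1, a ligand of FAT4, and DCHS2 rose by 2.75 and 3.32 from fewer than 50 normalized counts, LLGL2 rose by 2.38 and PATJ by 1.09, and FAT4 fell by 0.83 on the log2 scale. SCRIB, a gene of basolateral polarity, fell past both thresholds, from 3267 ± 156 to 1356 ± 58.9 (log2 fold change −1.27). PATJ was no longer past both thresholds without siPVT1 replicate 1 (0.91), with scaling by the total count (0.94) or in the test against a 2-fold change.

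**Figure D4:**
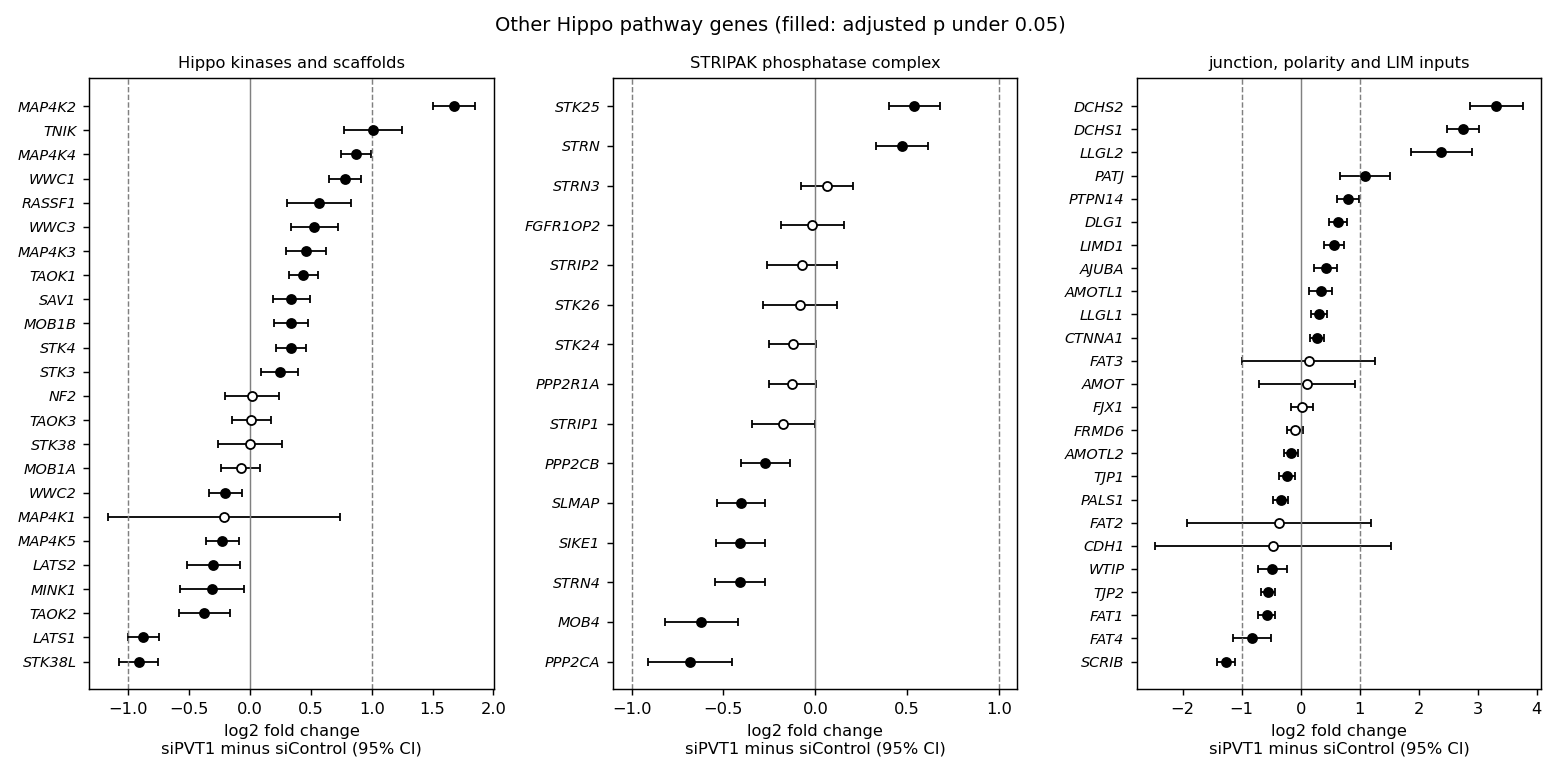
Log2 fold change (horizontal axes, siPVT1 minus siControl, each panel with its own range) with 95% confidence intervals from edgeR for the tested kinases and scaffolds, STRIPAK genes, and junction, polarity and LIM genes, filled where the adjusted p was under 0.05. Each panel holds genes on both sides of 0, LATS1 and STK38L are at the bottom of the first, and genes within 0.15 of 0 on the right fell below it with scaling by the total count.

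YAP1 and TAZ are held in the cytoplasm by 14-3-3 proteins and removed through ubiquitin ligases. Of 15 such genes 6 rose and 4 fell, and with scaling by the total count 2 rose and 5 fell. None passed both thresholds in edgeR or in DESeq2 (0 of 15, with 11 at an unadjusted p under 0.05). Over all genes tested, 57.9% were under 0.05 even by the adjusted p. The nearest was SFN, the gene of 14-3-3 sigma, at −0.98 (SE 0.0823), which passed without siControl replicate 2 (−1.02) or siPVT1 replicate 3 (−1.06). Among cofactors, VGLL4, which competes with YAP1 for the TEADs, rose past both thresholds, from 1188, 1172 and 1287 normalized counts in siControl to 2536, 2509.8 and 2584 in siPVT1. VGLL4 was up by 1.06 on the log2 scale (SE 0.0626, adjusted p = 5.4e-06 from edgeR), and 0.92 with scaling by the total count. It did not pass in the test against a 2-fold change (adjusted p = 0.35). VGLL3 was at 0.13 (adjusted p = 0.0962) and at −0.018 with that scaling, and VGLL1 and VGLL2 had too few counts to be tested.

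A published signature of 22 YAP1 and TAZ targets, which holds CCN1, CCN2 and LATS2, split in both directions. All 22 genes were tested, 8 rose and 8 fell, 3 were past both thresholds in each direction, and the median was 0.081 (−0.067 with scaling by the total count). Over all genes tested, 29.5% rose and 28.4% fell by the adjusted p, and 11.8% and 9.64% were past both thresholds. A split in both directions was thus also seen over all genes. F3, the gene of tissue factor (1.43, SE 0.142), NUAK2, a kinase (1.27, SE 0.1), and NT5E, the ectonucleotidase CD73 (1.22, SE 0.0563), rose past both thresholds. ANKRD1, a target as widely used as CCN1 and CCN2, was at 3881, 3499.5 and 3773 normalized counts in siControl and 1417, 1295 and 1355 in siPVT1. It fell in every siPVT1 library, with a log2 fold change of −1.46 (SE 0.0677, adjusted p = 2e-06 from edgeR), opposite to CCN2. IGFBP3 (−1.57) and FOXF2 (−1.14) also fell past both thresholds. FOXF2 did not pass in the test against a 2-fold change (adjusted p = 0.447). Of the 3 targets most used as readouts, CCN2 was thus higher, ANKRD1 lower and CCN1 without a change that passed the test.

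**Figure D5:**
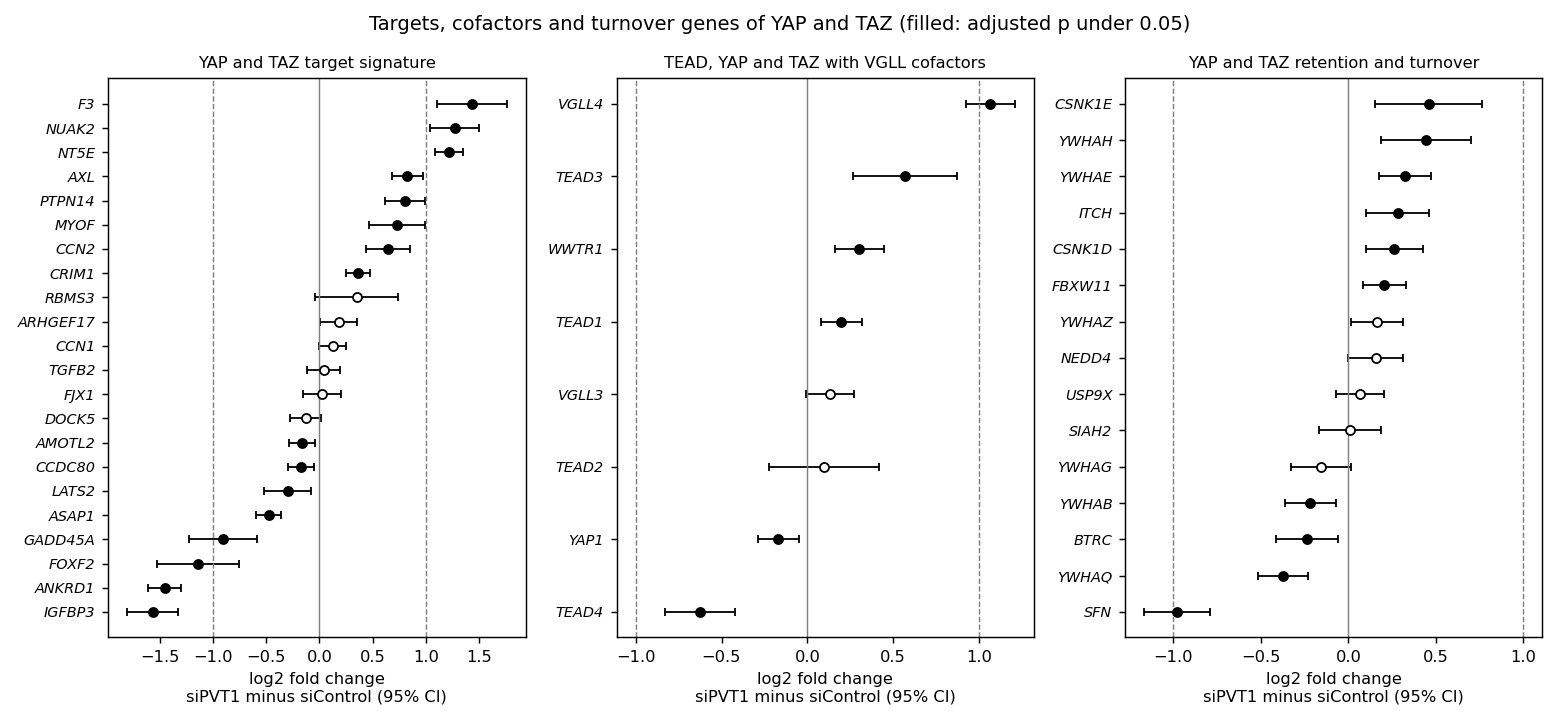
Log2 fold change (horizontal axes, siPVT1 minus siControl) with 95% confidence intervals from edgeR for the 22 genes of the target signature, the tested TEAD, YAP1, WWTR1 and VGLL genes, and 15 genes of retention and turnover, filled where the adjusted p was under 0.05. The signature runs from IGFBP3 at −1.57 to F3 at 1.43 with 8 filled points on each side of 0, and genes within 0.15 of 0 on the right, CCN1 and TEAD2 among them, fell below it with scaling by the total count.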

How the data were processed

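Libraries of mRNA from 6 samples of SK-OV3 cells were sequenced as single-end reads. The authors aligned them with STAR 2.7.3a to the GENCODE v35 transcriptome (GRCh38.p13) and counted them with Salmon 0.14.1, versions per the submitters' processing notes. The deposited table holds estimated counts by gene symbol, in whole numbers and not normalized. The strand setting is not given in the sources used here. All columns were matched to a sample by label.

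Counts were compared with edgeR 4.0.16 in R 4.3.3 (TMM, quasi-likelihood test, siRNA as the only term) in genes reaching 5 normalized counts in 3 or more libraries, with Benjamini-Hochberg adjustment over all genes tested. The SE of an estimate was taken from its size and its F statistic (size over root F). Alternatives were DESeq2 1.42.0 (1.28.1 in the submitters' notes), its size factors, scaling by the total count, no filter, filterByExpr, a replicate block, a test against a 2-fold change and each library left out. The fits were tested on simulated data. Coordinates and lengths came from GENCODE v44 (GRCh38), and promoters from RefSeq. PALS1 was read from its older symbol, MPP5. The genes and lists were chosen with earlier results of these data known. Named genes are the 10 members, PVT1, list members past both thresholds and, chosen after their values were seen, other list members (such as MAP4K4, SFN and STK38L). Genes of like pattern were to be named for members past both thresholds, of which there were none.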

Additional observations from a re-analysis of the deposited data

How the results depend on the processing

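Over the 12 alternatives for each of the 10 genes, 105 log2 fold changes kept their direction and their side of the adjusted p threshold, 12 lost their call and 3 turned in sign. The sign turned for TEAD2 (−0.055) and CCN1 (−0.026) with scaling by the total count and for TEAD2 without siPVT1 replicate 3 (−0.073), TEAD2 reaching 0.196 without siPVT1 replicate 1. With scaling by the total count 1 of the 10 genes (LATS1) passed both thresholds, as did 1 gene of retention and turnover (SFN) and 0 of the TEAD, YAP1, WWTR1 and VGLL genes. With DESeq2 size factors 1 of the kinases and scaffolds did (MAP4K2). Against a 2-fold change the numbers were 1 of the kinases and scaffolds, 0 of the TEAD, YAP1, WWTR1 and VGLL genes, 1 of the CCN family and 2 of the SRF and MRTF genes. With 1 library left out, the adjusted p was under 0.05 for between 5 and 8 of the 10 (5 without siControl replicate 3), from 1 to 2 kinases and scaffolds and from 0 to 1 genes of retention and turnover passed both thresholds, and PVT1 was from −0.80 to −0.62. Per kilobase, 6 of the 10 genes kept their place in the order of levels with the longest transcript and 6 with the canonical transcript, an alternative chosen after seeing the data. TEAD2 and TEAD3, with the fewest counts, had the widest intervals.

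With the replicate number as a block, the adjusted p was under 0.05 for 7 of the 10, the call of YAP1 being lost (−0.17, adjusted p = 0.0665 from edgeR), and PVT1 was at −0.72. Deviations from the group means of libraries with the same number were correlated at −0.037, 0.029 and 0.0023 across genes. These values gave no sign that the numbers pair the libraries. With 3 libraries per group they cannot settle it, and the labels do not say.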

Other observations

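The CCN family holds 6 matrix proteins, of which 4 had enough counts to be tested. Beside CCN2, which rose, and CCN1, which did not pass the adjusted p, CCN4 (also known as WISP1, a target of Wnt signalling) was at 3.81, 9.09 and 12.01 normalized counts in siControl and 204, 194 and 173 in siPVT1. It rose by 4.49 on the log2 scale (SE 0.275, adjusted p = 6.5e-06 by edgeR). CCN3, also known as NOV, was at 259.9 ± 17.1 normalized counts in siControl and 125 ± 8.74 in siPVT1 (SD, n = 3 each) and fell by 1.05 on the log2 scale. It did not pass in the test against a 2-fold change (adjusted p = 0.692). CCN5 and CCN6 averaged at most 1.78 normalized counts in either group.

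SRF with its MRTF cofactors regulates actin genes and shares the targets CCN1 and CCN2 with the TEADs. Of 22 genes of this kind 19 were tested, and 6 rose and 8 fell by the adjusted p (median −0.16). Over all genes tested 29.5% rose and 28.4% fell, with a median of 0.0014. With scaling by the total count 5 of the list rose and 10 fell (median −0.31), so its balance depends on the scaling. SRF itself fell by 0.55 on the log2 scale and MRTFA by 0.50, the actin genes ACTB and ACTG1 by 0.68 and 0.48. ZYX, the gene of the focal adhesion protein zyxin, fell from 3295, 3313 and 3117 normalized counts to 1091, 851 and 672, a log2 fold change of −1.90 (SE 0.154). FLNA fell by 1.07, and TPM2 (1.33) and FHL1 (1.01) rose past both thresholds. FLNA did not pass in the test against a 2-fold change (adjusted p = 0.399). FHL1 was not past both thresholds without siControl replicate 2 (0.96), siPVT1 replicate 1 (0.93) or siPVT1 replicate 2 (0.98), with DESeq2 (0.996) or its size factors in edgeR (0.995), with scaling by the total count (0.86) or in the test against a 2-fold change. Of these genes, SRF, MRTFA, ACTB and ACTG1 were named after their values were seen.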
